A study of Mus musculus with 1 sample.

Results

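The transcripts of 10 genes of the Hippo pathway and its effectors YAP, TAZ and TEAD were examined: Yap1, Wwtr1 (which encodes TAZ and is distinct from the tafazzin gene), Tead1, Tead2, Tead3, Tead4, Lats1, Lats2, Ccn1 and Ccn2. They were chosen by name, with earlier results of these data known, as were the gene lists below. Every probe set that the platform annotation assigns to exactly 1 of the 10 genes was used. All 10 were measured, out of 18193 genes with such a probe set, by 24 probe sets out of 34945. The sample was 1 culture of lung cancer cells labelled KR Primary, a line derived from a KR tumor of a B6/J mouse, grown in RPMI1640 with FBS and collected near confluence. The labels do not spell out KR. It was 1 line with no treated, untreated or normal sample beside it. Without a replicate there is no replicate error and no p-value, and the data say which transcripts gave signal, not whether any was raised or lowered by the tumor's genotype.

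YAP and TAZ are transcriptional coactivators that carry no DNA-binding domain of their own and act through the TEAD family of DNA-binding factors. In the Hippo pathway the kinases LATS1 and LATS2 phosphorylate YAP and TAZ, which keeps them in the cytoplasm or marks them for degradation. Ccn1 and Ccn2, which encode secreted matrix-associated proteins and were formerly called Cyr61 and Ctgf, are among the most widely used readouts of YAP and TAZ activity. In the lung epithelium the pathway is known for its part in growth, repair and alveolar type 1 cell differentiation.

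A probe set reports how strongly a group of short probes bound labelled RNA, in arbitrary fluorescence units. Its signal was judged against 126 probe sets of 112 genes of smell, taste and hair follicle cells on the same array, whose median was 6.41. The 95th percentile of these background probe sets, 16.8, is called the line below, and the highest of them, 60.6, the upper limit. The upper limit rests on 1 probe set, the next being 42.2. Probe sets differ in brightness for the same amount of RNA, so the order of signals between genes was used only to choose which genes of a list to name and is not an order of RNA amounts. A percentile below gives only a probe set's place among all 34945 one-gene probe sets.

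The elements to which TEAD factors bind are shown first, because YAP and TAZ act through these factors. The RefSeq promoter table (GRCm38.p6) held windows for Yap1, Wwtr1, Tead2, Tead3, Lats1, Lats2 and Ccn1 among the 10 genes, and the 250 bases before each listed transcription start were searched for the TEAD element CATTCC and for GGAATG, the same element read on the other strand. No other motif was searched. The element was present for 4 of these 7 genes, namely Yap1, Wwtr1, Tead3 and Ccn1, and in 6 of their 11 windows, against 14.4% of 27025 genes and 12.6% of 32851 windows in the whole table. The windows of Wwtr1 overlap and hold 1 element between them, and a gene with several windows has more chances to hold one. The Ccn1 window (chr3:145649986-145650235, minus strand) and that of Ankrd1, a cardiac ankyrin repeat protein gene and a further classical target (chr19:36119845-36120094, minus strand), are shown. Both hold the element, and all probe sets of both genes gave clear signal. The promoter of Igfbp3, a target named below with clear signal on all its probe sets, held no element. The windows shown are written 5′ to 3′ and end at the last base before the start, with the element in capitals.
Ccn1: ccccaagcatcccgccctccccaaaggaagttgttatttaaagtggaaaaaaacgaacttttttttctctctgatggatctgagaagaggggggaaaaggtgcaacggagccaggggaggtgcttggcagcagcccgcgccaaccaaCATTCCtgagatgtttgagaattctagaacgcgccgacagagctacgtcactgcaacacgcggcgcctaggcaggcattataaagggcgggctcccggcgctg
Ankrd1: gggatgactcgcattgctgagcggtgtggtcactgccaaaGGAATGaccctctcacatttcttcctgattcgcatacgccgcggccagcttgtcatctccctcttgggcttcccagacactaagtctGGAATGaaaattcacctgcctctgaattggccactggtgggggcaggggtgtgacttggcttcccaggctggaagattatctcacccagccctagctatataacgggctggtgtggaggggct

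In the promoters of the coactivator genes themselves and of Amotl2, an angiomotin family gene and pathway target, the element stood in the following surroundings, again with the element in capitals.
Yap1: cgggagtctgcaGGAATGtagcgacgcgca
Wwtr1: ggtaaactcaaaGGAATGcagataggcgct
Amotl2: ctgaaactctcaCATTCCtggcatagcagc
The Yap1 stretch lies at chr9:8004720-8004749 on the minus strand, that of Wwtr1 at chr3:57576029-57576058 on the minus strand and that of Amotl2 at chr9:102717727-102717756 on the plus strand. Of 16 genes with a promoter in a list of further YAP and TAZ targets, described below, 6 held the element, Ankrd1 and Amotl2 among them, and 10 did not. The Ccn1 element began 103 bases before the start, and the 2 Ankrd1 elements began 210 and 123 bases before it. Over the whole array, 12.4% of 7128 genes above the upper limit held the element, against 14.7% of 5058 genes not above the line. A match is a description of the sequence and does not show that a TEAD factor was bound.

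At least 1 probe set passed the line for 9 of the 10 genes, and for the same 9 it passed the upper limit. Over all measured genes these shares were 63.3% and 47.5%. The exception was Tead2. Counted by probe sets, 23 of 24 exceeded the line and 19 exceeded the upper limit, against 60.9% and 41.1% of all one-gene probe sets. The median signal of the 24 probe sets was 220, against 32.1 over all one-gene probe sets. A gene with more probe sets passes more easily: 48.4% of genes with 1 probe set were above the line, against 72.4% with 2, 82.3% with 3, 87.5% with 4 and 89.3% with 6. For all 9 genes every probe set lay above the line, a condition met by 47.0% of all measured genes. In a bulk culture, fewer expressing cells and less RNA per cell cannot be told apart, so a dim signal does not say which of these holds.

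**Figure D1:**
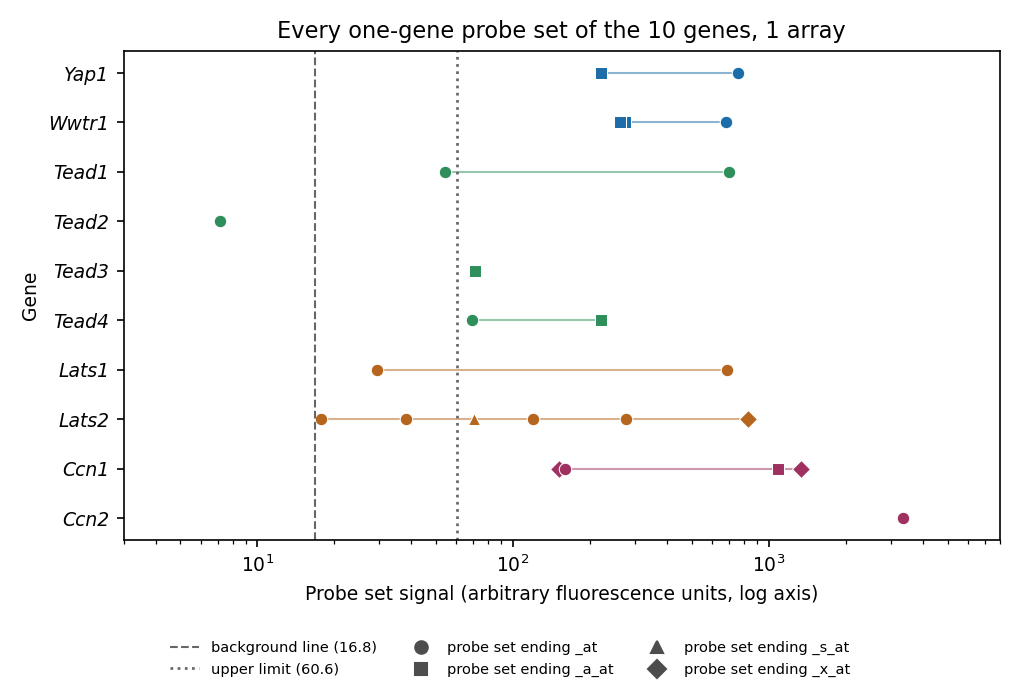
Signal of each of the 24 one-gene probe sets (log axis, arbitrary units) of the 10 genes, with lines joining the probe sets of a gene and marker shapes giving the probe set type. Dashed and dotted lines mark the line (16.8) and the upper limit (60.6), and only the Tead2 probe set lies left of the line.

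Both coactivator genes gave clear signal on every probe set. Yap1 gave 759 on probe set 1448363_at and 220 on 1416487_a_at, which are percentiles 92.0 and 77.4 of the array. Wwtr1 gave 678 on 1417818_at, 274 on 1417817_a_at and 262 on 1437155_a_at, at percentiles 91.0, 80.4 and 79.8. All 5 probe sets were therefore above the upper limit, and the transcripts of YAP and TAZ were present together in this culture. The ending _a_at marks probe sets designed to match several transcripts of 1 gene, and in both genes the plain _at probe set was the brighter one. Both Yap1 probe sets were designed from 1 sequence record and still differed 3.45-fold, and the Wwtr1 pair from 1 record differed 2.48-fold. Among 2500 such pairs on the array with at least 1 probe set above the line, the median difference was 2.32-fold, and 64.1% differed less than the Yap1 pair and 52.8% less than the Wwtr1 pair.

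The TEAD factors, which bring YAP and TAZ to DNA, were divided. Tead1 gave 696 on 1429556_at, at percentile 91.3, and 54.0 on 1423434_at, which lies between the line and the upper limit. Tead4 gave 221 on 1426337_a_at and 68.8 on 1460683_at, both above the upper limit. Tead3 gave 71.2 on its only probe set, 1420593_a_at, at percentile 61.3 and not far above the upper limit. Tead2, known for its role in early embryos and neural tissue, gave 7.14 on its only probe set, 1448519_at. That value is close to the background median and stands at percentile 22.0, so no Tead2 signal was detectable with this probe set. With 1 probe set each, neither the Tead2 nor the Tead3 reading has a second measurement on the array. Tead1 and Tead4 were thus the TEAD genes with a probe set well above the upper limit, while the probe sets of Tead1 differed 12.9-fold.

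The genes of the LATS kinases, which restrain YAP and TAZ, were both above background but with widely spread probe sets. Lats1 gave 686 on 1435739_at, at percentile 91.1, and 29.3 on 1427679_at, a 23.4-fold difference. Lats2, which is itself a target gene of YAP, had 6 probe sets. Its signals were 832 on 1439441_x_at, 277 on 1437101_at, 120 on 1419678_at, 70.3 on 1425420_s_at, 38.1 on 1426156_at and 17.7 on 1419679_at. The brightest has the ending _x_at, which marks probes that can also bind other transcripts, and the ending _s_at marks probe sets that can match more than 1 gene. Without these, 4 Lats2 probe sets remained, 2 of them above the upper limit and all 4 above the line. The Lats2 readings of 17.7 and 38.1, and the Lats1 reading of 29.3, lie within the range that background probe sets also reach. The lowest, 17.7, was designed from the same sequence record as the probe set reading 120, a 6.76-fold difference. A probe set assigned to Lats2 together with its neighbour Xpo4 was not counted here.

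Spread between the probe sets of a gene is the only spread that a single array gives. It mixes measurement error with the differences in brightness between probe sets described above. For the 7 genes measured by several probe sets, the SD of log2 signals ranged from 0.77 for Wwtr1 to 3.22 for Lats1 with a median of 1.71, against a median of 1.45 over all 9010 genes on the array with several probe sets. None of the 7 had probe sets on both sides of the line, whereas 32.9% of the 9010 genes did. At the upper limit, Tead1, Lats1 and Lats2 had probe sets on both sides, as did 41.0% of the 9010 genes. The amounts of Tead1, Lats1 and Lats2 RNA are therefore known less well than the fact that each was above background.

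The target genes Ccn1 and Ccn2 gave signal far above background. Ccn2, which encodes a matrix-associated growth factor modulator, gave 3344 on its only probe set, 1416953_at. This is 199 times the line and percentile 99.1 of the array. Ccn1, which encodes a related integrin-binding protein, gave 1337 on 1416039_x_at, 1089 on 1438133_a_at, 160 on 1457823_at and 152 on 1442340_x_at. All 4 were above the upper limit, but they formed a bright and a dim pair differing by up to 8.81-fold, and the dim pair came from 1 sequence record. Without the probe sets ending in _x_at, Ccn1 still read 1089 and 160. None of the other CCN family genes was above the line: Ccn5 gave 14.3, Ccn6 11.3, Ccn4 9.97 and 1.62, and Ccn3 4.86 and 3.32. Within the family, Ccn1 and Ccn2 were thus above the line and the other 4 genes were not. Over all measured genes 63.3% were above it, and 48.4% of genes with 1 probe set, as Ccn5 and Ccn6 have. Ccn5 at 14.3 exceeds the line at the 90th percentile of the background set, 14.1, so its call depends on that choice.

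Fibroblasts, endothelial cells and smooth muscle cells also express Ccn1 and Ccn2, so markers of these cells were read on the same array. Of 8 fibroblast markers only Col1a2, a collagen gene, passed the line, at 19.3, and their median level by the highest probe set was 11.2. Of 6 endothelial markers Kdr, a VEGF receptor gene, at 30.3 and Cdh5, the VE-cadherin gene, at 17.4 passed it, and of 6 smooth muscle markers Acta2, an actin gene, at 25.1 and Cspg4 at 23.2 did. Of 5 leukocyte markers only Csf1r, a macrophage growth factor receptor gene, did, on all 3 of its probe sets, at 47.1, 44.3 and 29.4. Defining markers under the line were Lum, a matrix proteoglycan gene of fibroblasts, at 14.4, Pecam1, an endothelial junction gene, at 14.3, Cnn1, a smooth muscle calponin gene, at 1.79 and Ptprc, the leukocyte gene for CD45, at no more than 11.5. Lum and Pecam1 exceed the line at the 90th percentile of the background set, 14.1, so their calls depend on that choice. The same holds for the fibroblast marker Pdgfra at 15.9 and the leukocyte marker Adgre1 at 15.6. None of these 25 genes passed the upper limit, and none was listed at 0. All 6 epithelial markers passed the upper limit, from Cldn4, a tight junction gene, at 1150 to Krt18, a simple-epithelial keratin gene, at 7600. Beside these marker counts stand shares of 63.3% for the line and 47.5% for the upper limit over all measured genes. Of the markers read, those above the upper limit were therefore the epithelial ones. They mark epithelial cells in general and do not show a lung or tumor origin. Which cells gave the Ccn1 and Ccn2 signal was not tested.

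**Figure D2:**
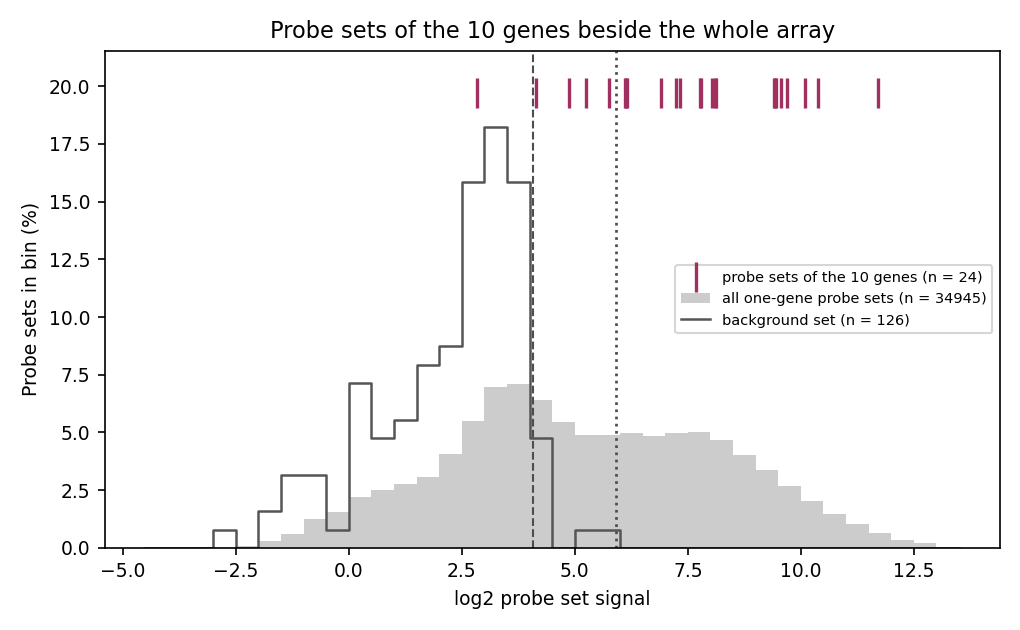
Distribution of log2 signals: red ticks are the 24 probe sets of the 10 genes, grey bars all 34945 one-gene probe sets and the outlined steps the 126 background probe sets (each in percent per bin of 0.5). The dashed and dotted lines are the line and the upper limit; 19 of 24 ticks lie right of the upper limit.

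Further genes commonly used as YAP and TAZ targets were mostly above background too. The line was exceeded by 17 of 21 measured genes in this list and the upper limit by 16, beside 63.3% and 47.5% of all measured genes, and the median of their highest signals was 448, against 48.3 over all genes. These 21 genes carried 48 probe sets, and more probe sets make a pass easier, as given above. Ajuba, a LIM protein gene, gave 2497 on its only probe set. The probe sets of Ankrd1 read 2366 and 2240, and those of Igfbp3, a secreted binding protein of insulin-like growth factors, read 1986 and 1942. In both genes the readings stood close together. Axl, a receptor tyrosine kinase gene, gave 1512 on 1 probe set and 4.475 on the other, which ends in _x_at. Amotl2 gave 875. The list was not uniform: Fjx1 with at most 7.85 and Ccdc80 with at most 2.45 were not above the line on any probe set, and neither were Tgfb2 and Foxf2, named here after their values were seen, with at most 9.42 and 9.94. Target genes respond to many other signals as well, and with 1 sample the list does not measure the activity of YAP or TAZ.

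The kinases, scaffolds and adaptors that act with LATS were above the line in all 13 measured cases and above the upper limit in 12, beside 63.3% and 47.5% of all measured genes. These 13 genes carried 48 probe sets, and genes with several pass more easily, as given above. Stk4, which encodes the kinase MST1 upstream of LATS, gave 1382, 295 and 123 on its 3 probe sets, of which the brightest ends in _s_at. Sav1, the scaffold that joins these kinases, gave 796 and 374, and Mob1a, a LATS coactivator gene, gave 1215, 414 and 234. Nf2, encoding the upstream tumor suppressor merlin, gave 141, 68.0, 46.7 and 43.7, so that 2 of its 4 probe sets exceeded the line but not the upper limit. Stk38l, a kinase gene related to LATS, gave at most 75.3. Taok2, an upstream kinase gene, was the gene under the upper limit, at 18.4 on the only 1 of its 3 probe sets above the line. Stk3, the gene of the related kinase MST2, was not analysed here.

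**Figure D3:**
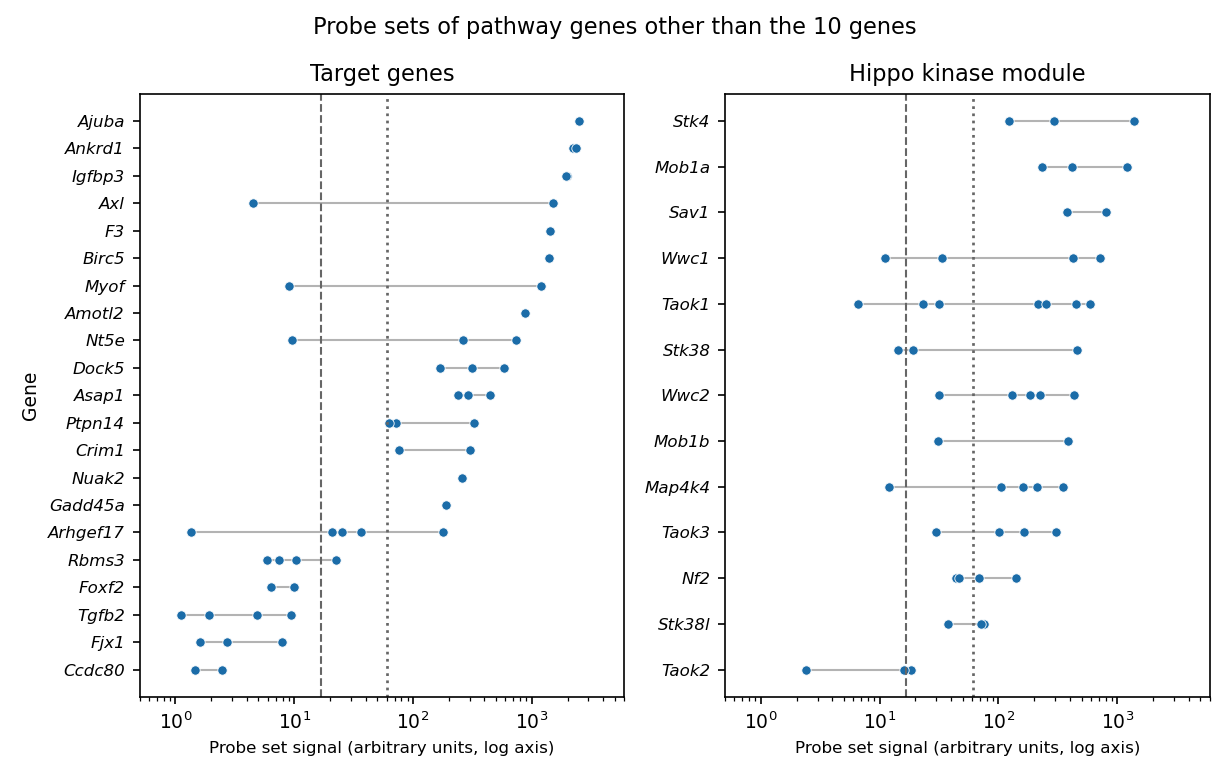
Signals of all one-gene probe sets (log axis, arbitrary units) of 21 target genes and of 13 genes of the Hippo kinase module, each gene's probe sets joined by a line, with the line (16.8) dashed and the upper limit (60.6) dotted. Of the target genes 17, and of the kinase module genes all 13, have a probe set right of the dashed line.

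Genes of cell polarity and cell junctions, through which cell contact feeds into the pathway, were above the line and the upper limit in 15 of 17 cases, beside 63.3% and 47.5% of all measured genes. Fat1, an atypical cadherin gene, gave 3245 and Tjp1, the tight junction scaffold ZO-1, gave 2249. The 2 exceptions were Fat4 with 5.69 and 2.29 and Dchs1 with 5.82, the pair of atypical cadherins that bind each other as receptor and ligand. Ajuba, Amotl2 and Ptpn14 stand in this list and among the target genes. A list of genes for ubiquitin ligases, phosphatase complexes and casein kinases that act on the pathway passed the line in all 11 measured cases and the upper limit in 10, beside the same 63.3% and 47.5% of all measured genes. These 11 genes carried 38 probe sets, and genes with several pass more easily, as given above. Ppp1ca, a catalytic phosphatase subunit gene, gave 3713, Ppp2r1a, a scaffold subunit gene, between 403 and 2636 on 5 probe sets, and Strn3, a striatin gene, between 310 and 2482 on 3. Strn4 gave 317. Btrc, encoding a ligase subunit that recognises phosphorylated YAP, was the exception, at 47.3 on its highest probe set.

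Other proteins that bind TEAD or work beside it passed both thresholds in 3 of 7 cases, beside 63.3% of all measured genes for the line and 47.5% for the upper limit. Vgll4, which encodes a competitor of YAP for TEAD, gave 381 on its only probe set. Runx1, a transcription factor gene, gave 310 on the highest of 6 probe sets, all above the line, and Ncoa3, a coactivator gene, gave 177 and 99.7. Vgll1, a relative of Vgll4, gave 1.71 and was not above the line, nor was Runx3 with 6.16 and 1.39. The relatives Vgll2 and Vgll3, named after their values were seen, were not above it either, with 14.7 for the only probe set of Vgll2 and 10.3 as the median of the 3 of Vgll3.

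**Figure D4:**
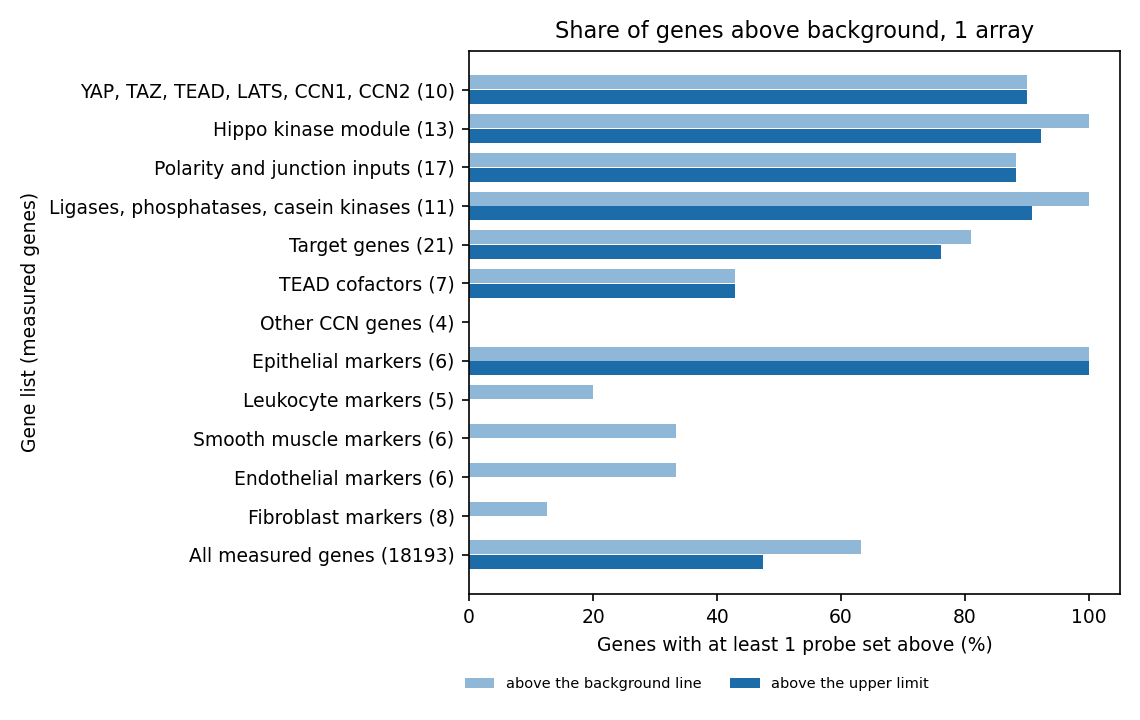
Percentage of measured genes with at least 1 probe set above the line (light) and above the upper limit (dark), for the 10 genes, for lists of pathway genes and cell type markers, and for all 18193 measured genes. The 10 genes stand at 90.0% for both, and all measured genes at 63.3% and 47.5%.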

How the data were processed

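Total RNA of 1 culture was extracted with Trizol and biotin-labelled cRNA was hybridized to 1 Affymetrix array (per the labels' protocols). The authors deposited a linear signal intensity for each probe set and, per the submitters' processing notes, used Affymetrix Expression Console. Which algorithm and version it ran, and whether values were scaled or called as detected, is not given in the sources used here. However, the 2% trimmed mean of the deposited signals was 150, the value that scaling to a target of 150 would leave. Dim signals carry little information on amount and very bright ones can be compressed.

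Probe sets naming several genes (932) or none (9160) were left out. Gene symbols were brought up to date by gene ID with a RefSeq table of GRCm38.p6 for 34741 probe sets. Signals were taken to log2 for spreads. A gene was above a threshold if its highest probe set was. No test between groups was possible, and the use of 1 array limits the precision. The members and gene lists were chosen with earlier results of these data known. Named are all members, the 3 highest and 2 lowest genes of each other list by highest probe set and a few preset genes. Of the marker lists only those above the line, a defining gene of each and the ends of the epithelial list were chosen. Pdgfra and Adgre1 were added after their values were seen. Calls and motif searches were run on simulated data with planted signals and motifs, which checks the code and not the calls made here. Alternatives varied the line, the choice of background genes, which probe sets counted and how they were combined per gene. Python 3.11.15, numpy 2.4.6, pandas 2.3.3 and matplotlib 3.10.9 were used.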

Additional observations from a re-analysis of the deposited data

Results flagged for a closer look

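Probe set 1421055_at, which the annotation assigns to Lats2 and its neighbour Xpo4 together and which was therefore left out of the gene counts, read 75.5. It was flagged because it is above the upper limit of 60.6 in data not used above. Xpo4, a nuclear export receptor gene, read 147, 72.3 and 22.4 on the probe sets that name it alone, and Lats2 read from 17.7 to 832, so the signal cannot be assigned to either gene.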

How the results depend on the processing

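The count of 9 of the 10 genes above the line was the same under each of the 9 alternatives: the line at the 90th or 99th percentile of the background set (14.1 or 36.9) or at the upper limit, a background of smell and taste genes alone (15.1) or of keratin-associated genes alone (20.8), probe sets without the endings _s_at and _x_at, probe sets naming several genes added, and the median or all of a gene's probe sets in place of the highest. The count of probe sets above the line, 23 of 24, ranged from 19 to 24 over the 7 of these that change it or its line, with 19 of 20 where the endings _s_at and _x_at were left out and 24 of 25 where the several-gene probe set was added. For the count of genes, the lower lines (14.1 and 15.1) could not give a smaller value. Nor could the added probe set, which names the already counted Lats2. The probe sets of Lats1 above the line were 1 of 2 at the 99th percentile and at the upper limit, and those of Tead1 were 1 of 2 at the upper limit. Those of Lats2 were 5 of 6 at the 99th percentile and with keratin-associated genes alone, and 4 of 6 at the upper limit. Of 70 pathway genes outside the 10, 56 were above the line, beside 63.3% of all measured genes, and 54 to 55 under the 3 alternatives run for them. Those were the 99th percentile, probe sets without the endings _s_at and _x_at, and the median of a gene's probe sets. None of them could raise the count. The lines at the 90th percentile and at the upper limit were not run for these genes. Samples without replicates allowed no paired or leave-one-out analysis.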

Other observations

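The nearest measured protein-coding genes on either side of each of the 10 genes (RefSeq order, GRCm38.p6) were looked up after the values of the 10 genes had been seen. The line was passed by 15 of these 20 neighbours and the upper limit by 12, beside 63.3% and 47.5% of all measured genes. Both neighbours of Tead2 on chromosome 7, the genes Dkkl1 at 1.33 and Cd37 at 13.7, were not above the line, as Tead2 itself was not. Ccn2 on chromosome 10, at 3344, stands between Moxd1 at 35.1 and Enpp3 at no more than 7.59, neither above the upper limit. Yap1 on chromosome 9, at 759 on its highest probe set, stands between Birc3, an inhibitor of apoptosis gene, at 72.0 and Cfap300, a cilium assembly gene, at 17.3.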
